A study of Homo sapiens with 4 samples.

Results

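The EGR, NR4A and IER genes are 3 small groups of early response genes, here EGR1, EGR2, EGR3, EGR4, NR4A1, NR4A2, NR4A3, IER2, IER3 and IER5. Their RNA was measured in OVSAYO cells, a line established from a clear cell carcinoma of the ovary. All array spots outside the control spots were searched for a RefSeq accession that belongs to one of these symbols, which found 12 probes for all 10 genes, among 26222 probes for 17721 named genes. IER2 and IER5 had a pair of probes and the other genes 1 each, and every member probe had a single spot.

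The study asked which genes respond to CoCl2, an agent that mimics hypoxia, in a way that depends on the transcription factor Sp1. A negative control siRNA (NS-si) or a pool of siRNAs against Sp1 (Sp1-si) was transfected with lipofectamine. After 40 h of culture by the sample labels (a figure legend of the study gives a shorter time), 0.5 mM CoCl2 was given in fresh medium for 4 h (NS-si → CoCl2 and Sp1-si → CoCl2), and the remaining groups were labelled as not exposed. All 4 groups share the transfection, come from 1 cell line and hold the cells of 1 sample each. RNA from each of the 4 groups was labelled with Cy3 and hybridised to 1 array, and the 4 arrays lay on 1 slide. There was no replicate, so no test was run, and each difference below compares a pair of arrays.

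Early response genes are switched on within minutes to hours of a stimulus, from factors that already sit in the cell, and their transcripts are short-lived. EGR proteins are zinc finger transcription factors that bind GC-rich sites, some of which overlap sites of Sp1. NR4A proteins are orphan nuclear receptors that act without a known hormone, and NR4A genes are induced by hypoxia, stress and cyclic AMP in many cells. IER is a name of convenience for early response genes that do not form 1 protein family.

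Each array was scaled to the 75th percentile of its own signals, which lay between 977 and 1287, and levels are given as scaled intensities, on which a probe can be compared between arrays but not with another probe. Of 43376 spots outside the controls, 33081 to 34542 were well above background by the scanner software and 0 were saturated. The Sp1-si → CoCl2 array had the fewest such spots and the highest 75th percentile. The spread of a single spot was taken from probes printed in 10 spots on each array, as the median SD of a log2 difference over the 30 such probes of nearest level (spot SD). It covers printing and hybridisation within an array and not the variation between cultures. SP1 was lower in Sp1-si cells by both of its probes. The probe with 10 spots read 543 with NS-si and 39.9 with Sp1-si, and 492 and 33.7 under CoCl2, log2 differences of -3.77 and -3.87. NAPSA and PAX8, markers of ovarian clear cell carcinoma, and the epithelial markers KRT7, KRT8, KRT18 and EPCAM were well above background on all 4 arrays, and WT1, usually low in such carcinomas, PTPRC (leukocytes) and PECAM1 (endothelium) on none. ESR1 and PGR, also usually low there, and CD3E (T cells) and DCN (fibroblasts) were above it on all 4, and their part in the results was not tested.

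A gene was counted as raised or lowered where its brightest probe differed at least 2-fold and was well above background on the brighter array. The arrays read whole cultures, in which fewer expressing cells and less RNA per cell cannot be told apart. Of the 10 genes, 7 were well above background on all 4 arrays and can be compared. NR4A1 and NR4A2 were raised by CoCl2 with either siRNA, and EGR1 was the only gene of the 7 lowered, in Sp1-si cells. In NS-si cells 2 of the 7 were raised and 0 lowered, where 4.22% and 3.54% of all 15118 genes measured were, or 7.76% either way. In Sp1-si cells 2 were raised and 1 lowered, where 3.7% and 4.04% of 14931 genes were, or 7.74% either way. Between Sp1-si and NS-si cells, 0 of the 7 differed 2-fold without CoCl2, where 12.4% of 15191 genes did, and 0 under CoCl2, where 15.2% of 15043 did. The median log2 difference of the 7 by CoCl2 was 0.28 with NS-si and 0.32 with Sp1-si, against medians of 0.0046 and -0.0093 over all genes measured.

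**Figure D1:**
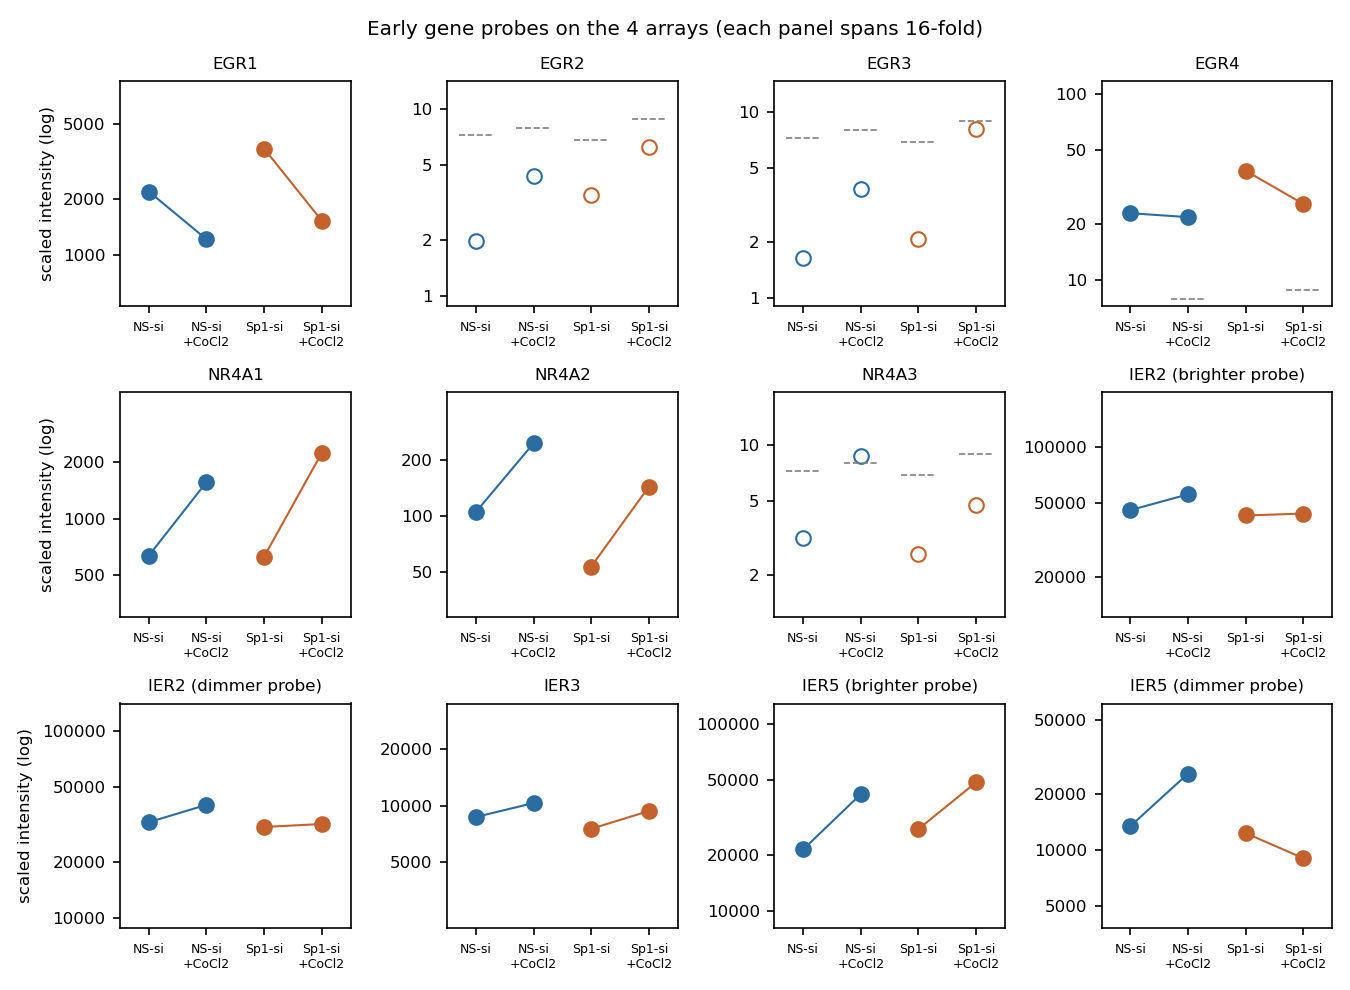
Scaled intensity of each probe of the EGR, NR4A and IER genes on the 4 arrays, on a log axis that spans 16-fold in every panel. Blue points are NS-si cells, orange points Sp1-si cells, filled where the probe was well above background and open where it was not, with a dashed line, where it falls inside the panel, at the lowest signal well above background on that array. EGR1 lay lower under CoCl2 in both kinds of cells and NR4A1 and NR4A2 higher, while EGR2, EGR3 and NR4A3 have only open points.

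EGR1 is the EGR member best known as an early target of growth factor signals, through the serum response factor SRF and its partners. Its promoter is shown because the stretch searched holds 2 CArG boxes, the sites that SRF binds. The sequence is that of RefSeq on GRCh38.p14, chr5:138465229-138465478, forward strand, the 250 bases before the gene's start. In this and the other promoters below, capitals mark CArG boxes, TGACG (the core of sites for CREB and ATF factors) and GGGCGG (the GC box that Sp1 binds), each searched on both strands.

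EGR1: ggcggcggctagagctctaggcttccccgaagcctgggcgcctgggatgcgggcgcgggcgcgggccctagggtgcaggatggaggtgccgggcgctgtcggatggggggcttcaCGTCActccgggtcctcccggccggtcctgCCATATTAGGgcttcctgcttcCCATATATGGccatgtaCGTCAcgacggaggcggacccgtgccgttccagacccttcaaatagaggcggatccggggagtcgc

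The CArG boxes lay 105 to 96 and 83 to 74 bases before the start, and TGACG matched at 2 positions. A CArG box was present in 1.16% of 35116 promoter windows of this length, TGACG in 21.2% and GGGCGG in 42.6%. No GGGCGG was found in this window of EGR1.

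The EGR1 probe read 2183 in NS-si, 1213 in NS-si → CoCl2, 3709 in Sp1-si and 1526 in Sp1-si → CoCl2 cells. It was highest in Sp1-si cells, and both arrays with CoCl2 lay below both arrays without it. CoCl2 went with a log2 difference of -0.85 (spot SD 0.039) in NS-si cells, 1.8-fold lower and short of the 2-fold bound, and of -1.28 (spot SD 0.032), 2.43-fold lower, in Sp1-si cells. Only 5.14% and 2.06% of all genes had a lower value. Sp1-si against NS-si gave 0.76 without CoCl2 and 0.33 under it. The CoCl2 difference in Sp1-si cells minus that in NS-si cells was -0.43, and it was 0.02 when the arrays were not scaled. The 4 levels all differed from their neighbours by more than 2 spot SDs.

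EGR4 is a relative of EGR1 that is described mostly in neurons. Its promoter is given beside that of EGR1 because without CoCl2 both genes read higher with Sp1-si than with NS-si. It lies at chr2:73293549-73293798 on the reverse strand and is written as the gene reads.

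EGR4: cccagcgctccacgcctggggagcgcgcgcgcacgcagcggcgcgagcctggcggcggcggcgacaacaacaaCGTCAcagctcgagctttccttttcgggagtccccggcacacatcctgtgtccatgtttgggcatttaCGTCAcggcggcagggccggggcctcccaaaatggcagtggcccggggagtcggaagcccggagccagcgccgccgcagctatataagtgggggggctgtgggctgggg

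This window held TGACG at 2 positions and the TATA-like word TATATAA (present in 2.42% of windows), and neither a CArG box nor GGGCGG. The EGR4 probe was dim. It read 22.9 in NS-si, 21.8 in NS-si → CoCl2, 38.7 in Sp1-si and 25.7 in Sp1-si → CoCl2 cells, against a lowest signal well above background of 6.85 to 8.90 on these arrays. Sp1-si cells stood above the other 3 groups, which did not differ from their neighbours by more than 1 spot SD. The log2 difference by CoCl2 was -0.07 (spot SD 0.17) in NS-si cells and -0.59 (spot SD 0.15) in Sp1-si cells. That of Sp1-si to NS-si was 0.76 (spot SD 0.17) without CoCl2, where EGR1 had 0.76, and 0.24 (spot SD 0.16) under it. Under a normexp background correction with an offset of 50, the former was 0.31 for EGR4, while EGR1 stayed between 0.71 and 0.80 in the scalings tried. The CoCl2 difference of EGR4 in Sp1-si cells was then -0.14. The offset is added to every signal, which by construction draws the log2 differences of dim probes toward 0. How much of the change came from the offset was not tested.

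EGR2, which directs myelination in Schwann cells, and EGR3, which acts in muscle spindles and lymphocytes, were not well above background on any of the 4 arrays. The EGR2 probe read between 1.97 and 6.26 and the EGR3 probe between 1.64 and 8.04. For both the lowest value was in NS-si and the highest in Sp1-si → CoCl2 cells, but none was called well above background, and no ratio is given. NR4A3 was in the same position at 2.60 to 8.68. Its highest value, in NS-si → CoCl2 cells, lay above the lowest signal called well above background there, 7.95, without being called itself.

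NR4A1, also known as Nur77, is induced in many cells by growth factors, calcium and stress. The RefSeq table gives 2 starts for it, and the window before the more downstream of them, chr12:52037465-52037714 on the forward strand, is shown because it is the one of these 2 that holds a GC box.

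NR4A1: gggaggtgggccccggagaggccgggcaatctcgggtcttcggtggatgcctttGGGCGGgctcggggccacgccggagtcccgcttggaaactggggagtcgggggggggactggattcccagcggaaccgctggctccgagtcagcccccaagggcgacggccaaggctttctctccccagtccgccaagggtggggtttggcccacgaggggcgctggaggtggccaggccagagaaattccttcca

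GGGCGG lay 196 to 191 bases before this start, and neither window held a CArG box or TGACG. The NR4A1 probe read 634 in NS-si, 1569 in NS-si → CoCl2, 625 in Sp1-si and 2245 in Sp1-si → CoCl2 cells. The 2 groups without CoCl2 differed by less than 1 spot SD, with a log2 gap of 0.02 against 0.03, and both groups with CoCl2 lay above them. NR4A1 was raised 2.48-fold in NS-si cells (log2 difference 1.31, spot SD 0.036) and 3.59-fold in Sp1-si cells (1.85, spot SD 0.033), higher than 97.7% and 99.2% of all genes. Under CoCl2, Sp1-si cells had 0.52 more on the log2 scale than NS-si cells. The CoCl2 difference was larger in Sp1-si cells by 0.54, and by 0.54 to 0.99 over the scalings tried.

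NR4A2, also known as Nurr1, is required for midbrain dopamine neurons and is hypoxia responsive in some cell lines. Its probe read 105 in NS-si, 245 in NS-si → CoCl2, 53.5 in Sp1-si and 143 in Sp1-si → CoCl2 cells. Each of these 4 levels was apart from the next by more than 2 spot SDs. NR4A2 was raised by CoCl2 in both kinds of cells, 2.33-fold in NS-si (log2 difference 1.22, spot SD 0.075) and 2.68-fold in Sp1-si cells (1.42, spot SD 0.075). Both calls were lost under the normexp correction (0.88 and 0.84). Its added offset draws differences at such low levels toward 0. It also used median spot signals and quantile normalization, and these parts were not tested apart. The call in NS-si cells was also lost without scaling, at 0.996. Sp1-si cells had less NR4A2 both without CoCl2 (-0.97, spot SD 0.071) and under it (-0.77, spot SD 0.089), which is 1.96-fold and 1.71-fold. These values shrank to -0.46 without CoCl2 under a normexp background correction with quantile normalization, and to -0.38 under CoCl2 without scaling. NR4A1 and NR4A2 thus both rose with CoCl2, while for Sp1-si against NS-si NR4A1 gave -0.02 and 0.52. The CoCl2 difference of NR4A2 in Sp1-si cells minus that in NS-si cells was 0.20 and ranged from -0.03 to 0.65 over the scalings tried.

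**Figure D2:**
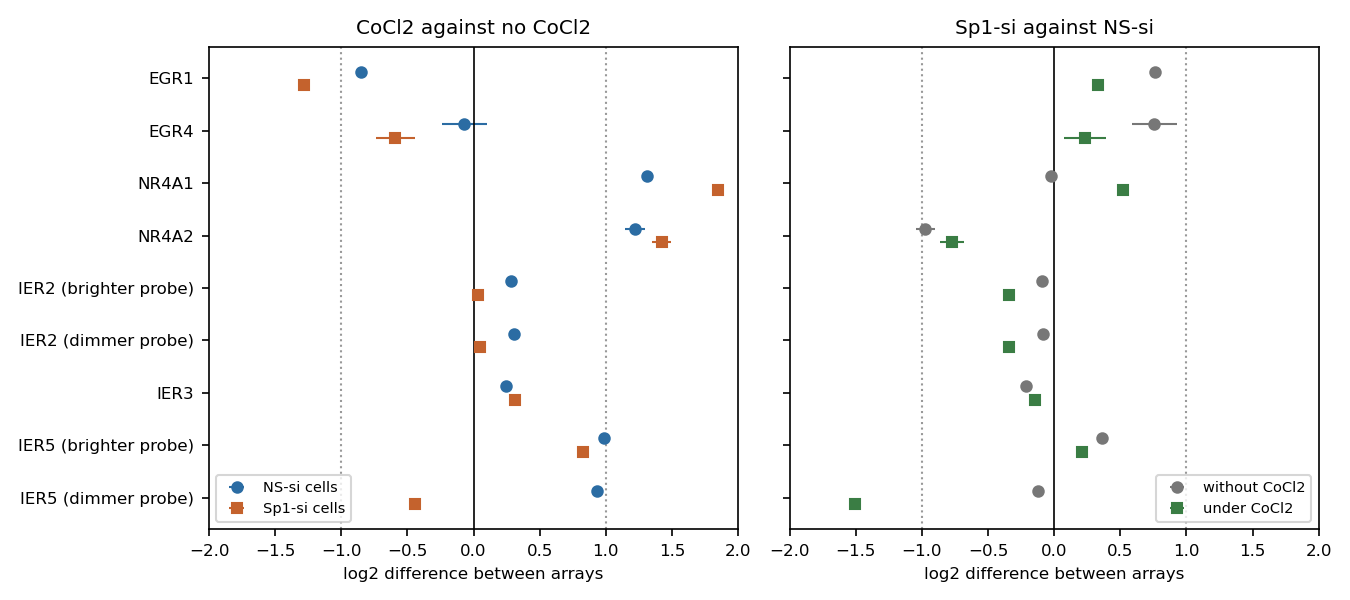
Log2 differences between arrays for the 9 probes that all 4 arrays measured well above background, with bars of 1 spot SD and dotted lines at 2-fold. The left panel gives CoCl2 against no CoCl2 for NS-si (circles) and Sp1-si (squares), the right panel Sp1-si against NS-si without (circles) and under CoCl2 (squares). NR4A1 and NR4A2 lie beyond 2-fold in both kinds of cells, EGR1 in Sp1-si cells at -1.28, and the dimmer IER5 probe at -1.50 in the right panel.

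The left and right panels of that plot share arrays, since each array enters 1 comparison by CoCl2 and 1 by siRNA. The CoCl2 difference with NS-si and the one with Sp1-si share none.

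IER2 is a small nuclear protein that was among the first early response genes described. Its promoter at chr19:13150161-13150410, forward strand, is shown because it held the most GC boxes among the measured genes with a sequence, 3, together with 1 TGACG.

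IER2: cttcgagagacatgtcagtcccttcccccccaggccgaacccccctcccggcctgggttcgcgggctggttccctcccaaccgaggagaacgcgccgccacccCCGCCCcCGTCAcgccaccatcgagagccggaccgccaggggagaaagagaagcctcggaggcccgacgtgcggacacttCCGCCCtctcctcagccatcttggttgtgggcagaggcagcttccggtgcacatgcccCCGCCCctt

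The brighter IER2 probe read 45617 in NS-si, 55435 in NS-si → CoCl2, 42713 in Sp1-si and 43732 in Sp1-si → CoCl2 cells. The dimmer one read 32507, 40254, 30651 and 31780 in the same order. By both probes IER2 was highest in NS-si → CoCl2 cells, and the other 3 groups lay close together. The log2 difference by CoCl2 was 0.28 in NS-si cells by this probe and 0.31 by the other, and 0.056 and 0.083 without scaling. In Sp1-si cells it was 0.03 and 0.05, against a spot SD of 0.026, and its sign turned under some of the scalings tried. Both probes gave -0.34 for Sp1-si against NS-si cells under CoCl2, a value that rose to 0.06 without scaling.

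IER3, also known as IEX-1, acts on survival and on the ERK pathway. Its probe read 8691 in NS-si, 10321 in NS-si → CoCl2, 7513 in Sp1-si and 9350 in Sp1-si → CoCl2 cells. These 4 values spanned a log2 range of 0.46. The log2 difference by CoCl2 was 0.25 with NS-si and 0.32 with Sp1-si (0.022 and 0.54 without scaling), and that of Sp1-si to NS-si was -0.21 without CoCl2. Under CoCl2, Sp1-si gave -0.14, and 0.26 when the arrays were not scaled.

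IER5 is a regulator of the heat shock factor HSF1 and is itself a target of HSF1. Its promoter at chr1:181088450-181088699, forward strand, is given for the heat shock word GAANNTTC, which starts 226 bases before the start and was present in 5.78% of windows. It is in lower case throughout, since none of the capitalised motifs was found.

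IER5: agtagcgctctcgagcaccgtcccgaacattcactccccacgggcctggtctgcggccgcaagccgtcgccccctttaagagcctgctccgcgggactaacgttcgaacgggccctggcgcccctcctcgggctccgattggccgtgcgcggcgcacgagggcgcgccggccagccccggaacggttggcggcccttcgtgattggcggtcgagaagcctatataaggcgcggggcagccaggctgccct

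The brighter IER5 probe read 21314 in NS-si, 42159 in NS-si → CoCl2, 27399 in Sp1-si and 48729 in Sp1-si → CoCl2 cells. Both groups with CoCl2 lay above both without it. The log2 difference by CoCl2 was 0.98 (spot SD 0.029) in NS-si cells, 1.98-fold and just under the bound, and 0.83 (spot SD 0.026) in Sp1-si cells, where it passed the bound without scaling, at 1.06. Sp1-si gave 0.36 without CoCl2 and 0.21 under it.

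The dimmer IER5 probe read 13442 in NS-si, 25699 in NS-si → CoCl2, 12347 in Sp1-si and 9066 in Sp1-si → CoCl2 cells. It matched the brighter probe on the pair of NS-si arrays, with a CoCl2 difference of 0.93, but was lowest in Sp1-si → CoCl2 cells, where the brighter probe was highest. By this probe the CoCl2 difference in Sp1-si cells was -0.45 (spot SD 0.026), and Sp1-si against NS-si under CoCl2 was -1.50 (spot SD 0.024), a 2.83-fold lower level. Read by this probe, IER5 would count as lowered by Sp1-si under CoCl2, as 8.08% of 15043 genes did, 7.17% being raised. The design gives both probes the same gene, and neither was flagged as an outlier or saturated on any array.

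Across the 4977 genes with at least 2 probes that passed the background call on every array, the 2 brightest probes of a gene differed by a median of 0.28 in the log2 difference of Sp1-si to NS-si cells under CoCl2. The gap of IER5 was 1.71, wider than in 97.3% of those genes, and 134 genes had a gap at least as wide. The gap of IER2 was 0.0011. In NS-si cells by CoCl2 the IER5 gap was 0.05. The widest 5% of genes began at a gap of 0.80 for CoCl2 in NS-si cells, at 1.24 for CoCl2 in Sp1-si cells, at 0.94 for Sp1-si without CoCl2 and at 1.46 for Sp1-si under it. What the brighter and the dimmer probe of IER5 each read was not tested.

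**Figure D3:**
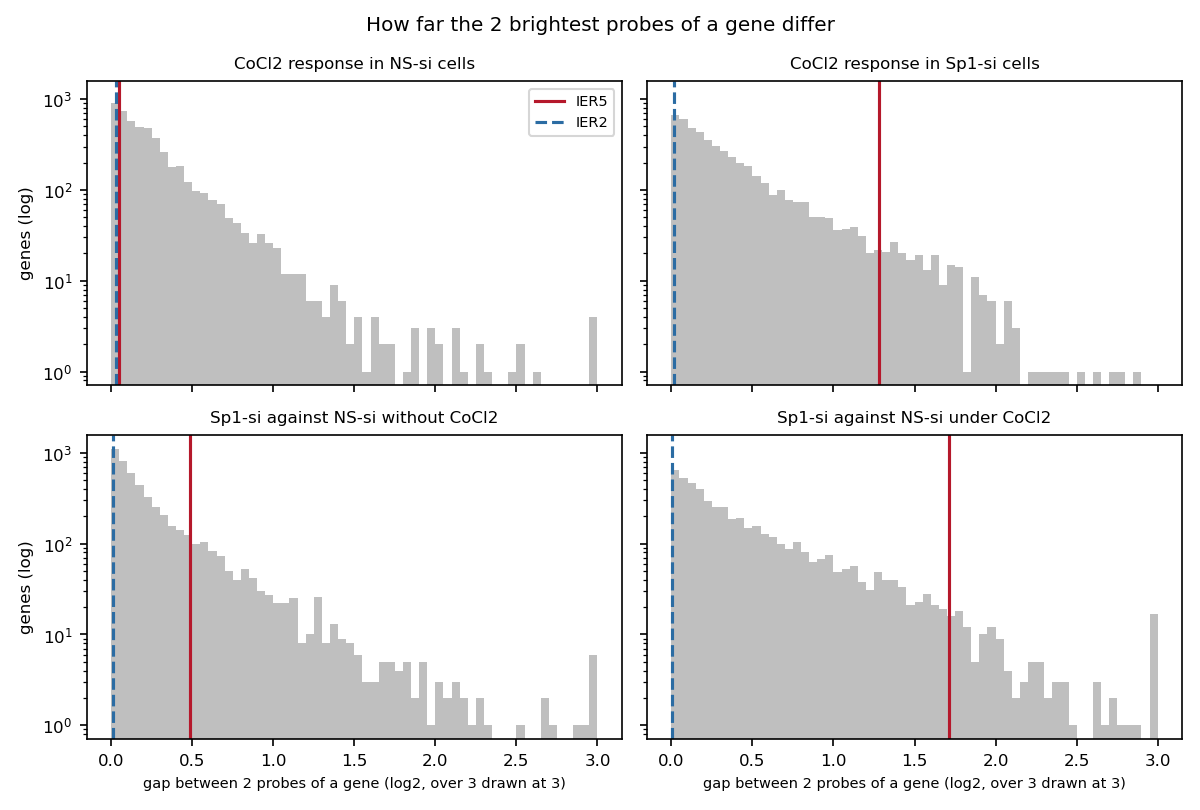
Number of genes (log axis) by the gap between the log2 differences of their 2 brightest probes, for each of the 4 comparisons, with gaps over 3 drawn at 3. The solid line marks IER5 and the dashed line IER2, which lie together near 0 for CoCl2 in NS-si cells, whereas IER5 stands at 1.71 for Sp1-si against NS-si under CoCl2.

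CoCl2 raised most of the other early response genes that were looked at. Of 24 such genes, a list chosen with earlier results of these data known, 23 were measured. In NS-si cells CoCl2 raised 14 and lowered 1, where 4.22% and 3.54% of all genes were, with a median log2 difference of 1.35. In Sp1-si cells it raised 12 and lowered 2, where 3.7% and 4.04% of all genes were, with a median of 1.05. The largest values in NS-si cells were those of MAFF, a small bZIP factor (2.80), CSRNP1, a nuclear protein induced by AXIN1 (2.70), and ATF3, a stress-induced repressor (2.68). In Sp1-si cells they were those of FOS, a subunit of AP-1 (2.63), ATF3 (2.32) and ZFP36, which destabilises AU-rich transcripts (2.26). EGR1 was near the lower end of these genes in NS-si cells, above SGK1, a kinase (-0.93), BTG2, an antiproliferative gene (-0.97), and CCN1, a matrix protein (-1.16). CCN1 was lowered in Sp1-si cells too (-1.42).

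**Figure D4:**
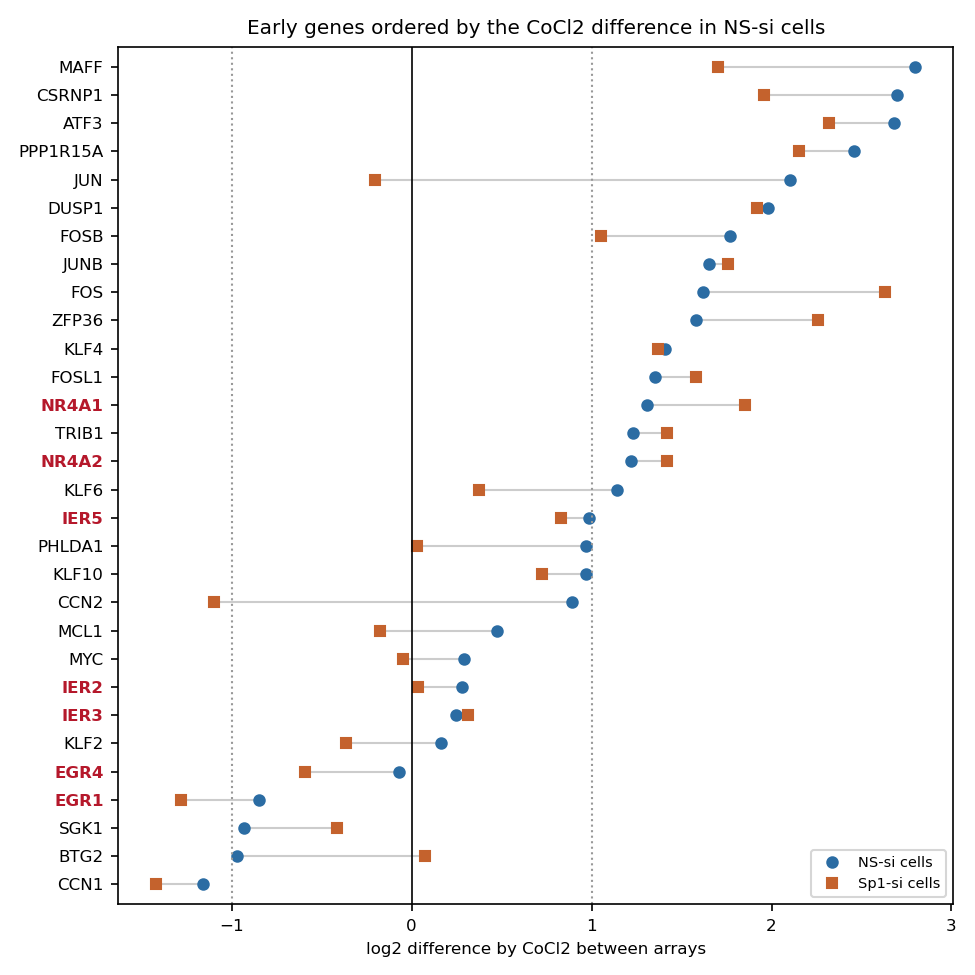
Log2 difference by CoCl2 with NS-si (circles) and with Sp1-si (squares) for the measured early response genes, ordered by the value in NS-si cells, with dotted lines at 2-fold and the names of EGR, NR4A and IER genes in red. MAFF is at the top with 2.80, NR4A1 and NR4A2 lie at 1.31 and 1.22, and EGR1 at -0.85 is among the 4 lowest.

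Sp1-si against NS-si gave fewer calls among these 23 genes. Without CoCl2, Sp1-si raised 3, the matrix gene CCN2 (1.80), ATF3 (1.10) and the endothelial factor KLF2 (1.08), where 6.22% of 15191 genes were raised, and it lowered 0, where 6.17% were. Under CoCl2 it raised FOS (1.08) and lowered JUN, the AP-1 partner of FOS (-1.96), and CSRNP1 (-1.48), 1 and 2 of 23 where 7.17% and 8.08% of all genes were. JUN read 5045 in NS-si, 21568 in NS-si → CoCl2, 6390 in Sp1-si and 5549 in Sp1-si → CoCl2 cells, so that only NS-si → CoCl2 cells stood high. Its difference between the CoCl2 differences, -2.30, was the widest of the list, and CCN2 followed with -1.99. With MAFF (-1.09), 3 of the 23 were past 2-fold downwards, where 2.88% of all genes were. BTG2 (1.04) and FOS (1.01), 2 of the 23, were past it upwards, where 0.973% were. Of the 7 EGR, NR4A and IER genes 0 reached 2-fold in this respect, which 0.973% of 14283 genes did upwards and 2.88% downwards, 3.86% in all.

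**Figure D5:**
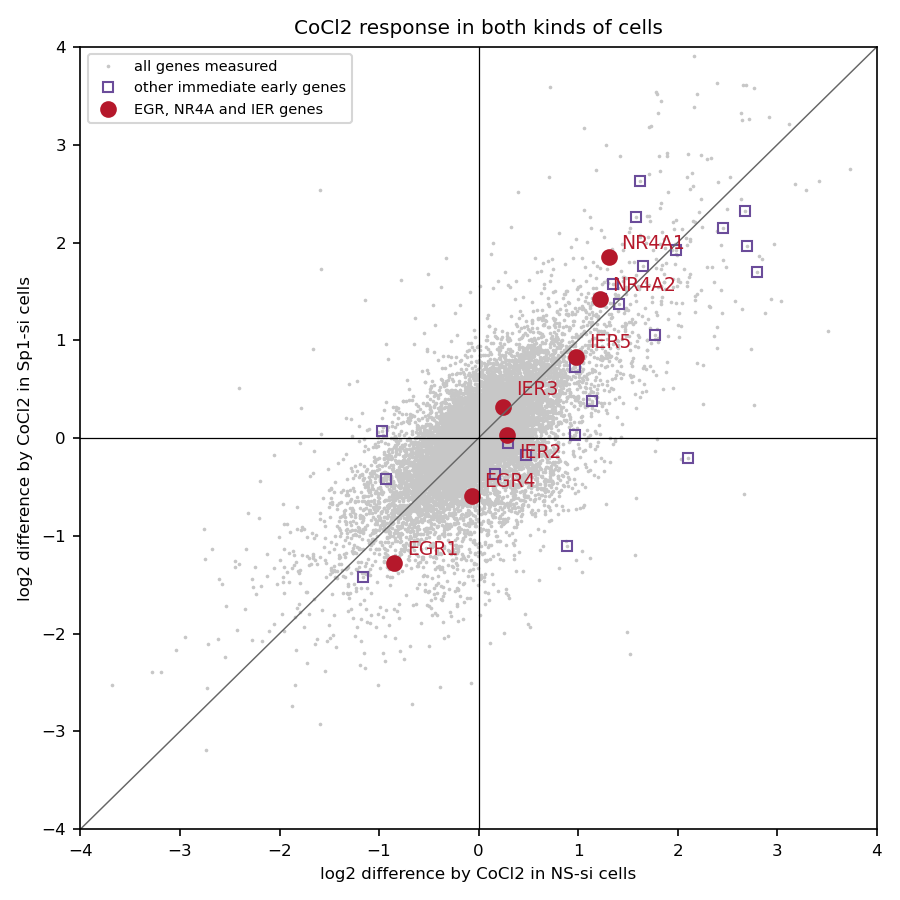
Log2 difference by CoCl2 in NS-si cells (x axis) against that in Sp1-si cells (y axis) for 14696 genes (grey, of which 4 lie outside the axes), other early response genes (open squares) and the EGR, NR4A and IER genes (red). The diagonal is the line of equal values, and NR4A1 at 1.31 and 1.85 lies above it while EGR1 at -0.85 and -1.28 lies below.

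The factors that act on early gene promoters were measured too, as 11 genes for SRF, its ETS and MRTF partners, and the CREB family. CoCl2 raised and lowered 0 of them with either siRNA, where 7.76% (NS-si) and 7.74% (Sp1-si) of all genes were raised or lowered. The medians were 0.32 and 0.26. SRF itself, the factor that binds CArG boxes, read 3649 in NS-si, 3483 in NS-si → CoCl2, 6465 in Sp1-si and 4974 in Sp1-si → CoCl2 cells. ELK3, an ETS partner of SRF, was raised by Sp1-si without CoCl2 (1.01), as 6.22% of all genes were. It was the only one of the 11 past 2-fold in any of the 4 comparisons. The call was lost without scaling and under the normexp correction.

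Of 10 partners and relatives of these genes 8 were measured, and CoCl2 raised or lowered 0 of them. Of all genes, 7.76% were with NS-si and 7.74% with Sp1-si. NAB2, a corepressor of EGR proteins and itself a target of EGR1, read 1225 in NS-si, 2371 in NS-si → CoCl2, 1238 in Sp1-si and 2376 in Sp1-si → CoCl2 cells. NAB2 was thus higher with CoCl2 where EGR1 was lower, by 0.95 and 0.94, under the 2-fold bound. HSF1, which acts with IER5, differed by 0.26 and -0.01. RXRA, the dimer partner of NR4A1 and NR4A2, was lowered by Sp1-si under CoCl2 (-1.44), as 8.08% of all genes were. It was the only one of the 8 past 2-fold.

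Of 12 genes known as targets of EGR1, 10 were measured. CoCl2 raised 2 of them in NS-si cells, the coagulation initiator F3 (1.52) and the growth factor PDGFB (1.48). It lowered 0 there, where 4.22% of all genes were raised and 3.54% lowered. In Sp1-si cells it raised PDGFB (1.55) and lowered 0, where 3.7% of all genes were raised and 4.04% lowered. F3 read 261 in NS-si, 748 in NS-si → CoCl2, 82.7 in Sp1-si and 162 in Sp1-si → CoCl2 cells. It was lowered by Sp1-si without CoCl2 (-1.66) and under it (-2.20). PDGFA was raised by Sp1-si in both settings (1.52 and 1.45), and PTGES, a prostaglandin synthase, was lowered without CoCl2 (-1.33) at a dim level of 10.4 to 26.0. Sp1-si thus raised 1 and lowered 2 of the 10 without CoCl2, where 6.22% and 6.17% of all genes were, and 1 and 1 under it, where 7.17% and 8.08% were. The median of this list by CoCl2 was 0.33 with NS-si and 0.69 with Sp1-si, beside -0.85 and -1.28 for EGR1 itself.

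The genes nearest to 4 members in pattern over the 4 arrays were sought among 14283 genes well above background on all of them, by the distance between centred log2 levels. With 4 arrays many genes lie close by, and the distances are a description. Nearest to EGR1 were FGF18 (0.10), STOX1 (0.12) and CEBPA-DT (0.16). Among the nearest to NR4A1 were SEC14L2 (0.10) and HK1 (0.18). NR4A2 had TCP11L2 (0.095), TRIB1 (0.18) and KRCC1 (0.19), of which TRIB1 was also on the list of early response genes. The brighter IER5 probe had SBNO2 (0.0086), SDS (0.063) and MDN1 (0.073). For the dimmer IER5 probe, looked up after its values were seen, the nearest were CADM3 (0.057), VWA5B2 (0.068) and RBBP6 (0.086).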

How the data were processed

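RNA of OVSAYO cells in 4 conditions was measured on 1 array each. The intensities deposited by the authors are the processed signals of the scanner software (Feature Extraction 10.5.1.1, per the file headers), corrected for background within each array but not normalized between arrays; the array annotation names hg18. The authors' value table equals these intensities multiplied by 1 constant per array. The main values are log2 intensities deposited by the authors minus the 75th percentile of each array. Spots flagged as outliers were left out, and a probe was well above background where at least 50% of its spots were. Symbols came from RefSeq accessions, which matched 28463 of 29877 spots that carry one, and a gene was represented by its brightest probe. Promoters came from RefSeq on GRCh38.p14. Entries on 1 chromosome were left out before matching, which took out EGR3, and 7 of 10 genes were matched. NR4A2 and IER3 have no sequence given, and EGR2, EGR3 and NR4A3 are named only. The members and gene lists were chosen with earlier results of these data known, and SRF factors, partners, EGR1 targets and early response genes were named where they were among the 3 largest past 2-fold, beside members, SP1, and genes nearest in pattern; SRF, NAB2, HSF1, CCN1, SGK1 and BTG2 were named after their values were seen. Precision is limited by 1 array per condition, and no p-value was computed. Alternatives were other scalings, filters, thresholds, probe rules and a normexp background correction. The counting was tested on simulated data. Tools were Python 3.11.15, numpy 2.4.6, pandas 2.3.3, matplotlib 3.10.9, R 4.3.3 and limma 3.58.1. Some results are not reported here.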

Additional observations from a re-analysis of the deposited data

Results flagged for a closer look

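The search covered the probes of the EGR, NR4A and IER genes and the genes of the lists named for their size past 2-fold, and not the other genes. Among these, 5 probes lay higher with CoCl2 in NS-si cells and lower with it in Sp1-si cells, each by more than 2 spot SDs. The difference between the kinds of cells was not tested, as each value rests on 1 array per condition. For the dimmer IER5 probe it was -1.38 (0.93 in NS-si, -0.45 in Sp1-si cells), and the signs held under each scaling tried. For CCN2 it was -1.99 (0.89 and -1.10), with signs that also held. For JUN it was -2.30 (2.10 and -0.20), where the value in Sp1-si cells became 0.02 without scaling. For KLF2 it was -0.53 (0.17 and -0.36) and for RXRA -0.81 (0.17 and -0.65), and both were -0.06 in NS-si cells without scaling. All 5 differences were downwards, as were 412 of the 551 genes past 2-fold in this difference. That split turned without scaling to 915 up and 76 down. All 5 values in Sp1-si cells use the Sp1-si → CoCl2 array, which had the fewest spots well above background (76.3%). The 2 brightest probes of a gene differed by a median of 0.24 for CoCl2 in Sp1-si cells and 0.28 for Sp1-si under CoCl2. In comparisons without this array the medians were 0.18 for CoCl2 in NS-si cells and 0.15 for Sp1-si without CoCl2. The part of this array in the 5 differences was not tested.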

How the results depend on the processing

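Of 290 recomputed counts, 252 stayed within 1.5 times the main value. Of 405 values of single probes, 389 kept their sign, and the other 16 had a main size of at most 0.43. NR4A1 and NR4A2 were above 0 with CoCl2 in both kinds of cells, and EGR1 below 0, in all scalings tried. Leaving out the scaling moved the median log2 difference of all genes to -0.22 for CoCl2 in NS-si cells, to 0.22 for CoCl2 in Sp1-si cells, 0.37 for Sp1-si under CoCl2 and 0.47 for the difference of CoCl2 responses. The share of raised genes among those past 2-fold then went from 54.4% to 30.5%, from 47.8% to 73.0%, from 47.0% to 81.0% and from 25.2% to 92.3% in that order. Median scaling gave 59.8% for CoCl2 in Sp1-si cells, 58.1% for Sp1-si under CoCl2 and 40.9% for the difference, and quantile normalization gave 37.6% for the difference.

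Without scaling, CoCl2 in NS-si cells raised 1 member (NR4A1) and lowered 1 (EGR1). CoCl2 in Sp1-si cells raised 3 (IER5 besides both NR4A genes), and Sp1-si without CoCl2 lowered 1 (NR4A2). Over all genes without scaling, CoCl2 in NS-si cells raised 414 and lowered 943 of 15115. CoCl2 in Sp1-si cells raised 955 and lowered 353 of 14811. Sp1-si raised 839 and lowered 1046 of 15183 without CoCl2, and raised 2422 and lowered 570 of 14851 under it. The difference of CoCl2 responses was up in 915 and down in 76 of 14283. Early response genes then had 3 lowered by CoCl2 with NS-si and 1 with Sp1-si, and 3 raised by Sp1-si under CoCl2. Of the SRF, ETS and CREB factors CoCl2 in Sp1-si cells raised 1, Sp1-si raised 0 without and 1 under CoCl2. Of the partners, CoCl2 in Sp1-si cells raised 1, and Sp1-si under CoCl2 1. Of EGR1 targets CoCl2 in Sp1-si cells raised 4, Sp1-si under CoCl2 raised 2, and the difference of responses was up in 1. Quantile normalization had CoCl2 raise 2 EGR1 targets in Sp1-si cells, and 1 early response gene up in the difference. Over all genes these were 622 of 14839 and 205 of 14283.

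Normexp had CoCl2 raise 1 member (NR4A1) with either siRNA, lower 1 early response gene in Sp1-si cells, and leave 1 up in the difference; Sp1-si without CoCl2 raised 0 of the SRF, ETS and CREB factors and lowered 1 EGR1 target. Without the filter on dim probes, CoCl2 in NS-si cells raised 5 members and Sp1-si under CoCl2 raised 1, since the dim EGR2, EGR3 and NR4A3 then count. With the mean over the probes of a gene, CoCl2 raised 1 partner with either siRNA and 2 EGR1 targets in Sp1-si cells, and Sp1-si without CoCl2 lowered 1 early response gene. At 1.5-fold, CoCl2 raised IER5 besides both NR4A genes with either siRNA, and it lowered 1 member with NS-si and 2 with Sp1-si. Sp1-si then raised 2 and lowered 1 without CoCl2, and lowered 1 under it. The share of all genes was not counted at 1.5-fold, at a log2 difference of 1.5, without the filter or with the mean over probes. At a log2 difference of 1.5, CoCl2 raised 0 members with NS-si and 1 with Sp1-si (NR4A1), and lowered 0. With the dimmer IER5 probe, chosen after seeing the data as was normexp, 1 member was lowered by Sp1-si under CoCl2 and 1 in the difference. The causes were not tested beyond how each setting is built. Normexp used median spot signals, since the scanner output read here held no mean signal. No paired analysis was possible because each group has 1 array and no test was run.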
